A study of Rattus norvegicus with 12 samples.

Results

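The G2/M gene score of rat kidney nuclei was followed through 25 clusters of nuclei in 12 rats. The score was deposited for every nucleus together with a phase call, and both were summarised per rat in each cluster, so that the rat and not the nucleus was the replicate. Of 217132 nuclei, 69931 (32.2%) carried the phase call G2M, 73368 (33.8%) the call S and 73833 (34.0%) the call G1. Clusters are given under their deposited names. Values of single genes were not analysed here, so the names could not be set against marker genes.

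Nuclei came from whole kidneys of male rats of the ZSF1 line, which the labels give as ZSF1-LeprfaLeprcp/Crl for lean and obese animals alike. Obese rats of this line develop diabetes and kidney disease. Soluble guanylate cyclase (sGC) makes cGMP in answer to nitric oxide, and the study asked how drugs that raise its activity change the diseased kidney. From an age of 13 to 14 weeks, and for 12 weeks, obese rats received vehicle (ethanol, Kolliphor and water), the sGC activator Runcaciguat (sGCact) at 3 mg/kg given 2 times a day, or the sGC stimulator BAY-747 (sGCstim) at 3 mg/kg given once a day. The daily amount of drug therefore differed between both treatments, and lean rats received neither drug nor vehicle. Each of the 4 groups held 3 rats. The rats are named as in the deposited table: RK1_4, RK3_4 and RK5_4 were lean, RK7_4, RK9_4 and RK16_4 obese with vehicle, RK43_4, RK45_4 and RK46_4 obese with sGCact, and RK57_4, RK58_4 and RK61_4 obese with sGCstim.

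G2 is the part of the cell cycle between DNA replication and division, and M is mitosis itself. Genes of both phases encode the mitotic cyclins, the kinases that drive division and the proteins of the spindle and the condensed chromosomes. Epithelial cells of the adult kidney tubule rarely divide, but they can enter the cycle after injury, and arrest in G2/M has been linked to a profibrotic state of injured tubule cells. A module score of this kind is the average level of the genes of the set in a nucleus minus that of control genes of like abundance. It has no unit and no true zero, so differences and SDs are given and no folds. The genes that entered the score are not given in the sources used here.

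The score was close to 0 in nearly every nucleus. Its median over all nuclei was -0.0121, the 10th and 90th percentiles were -0.0514 and 0.0553, and the 99th percentile was 0.122, while single nuclei reached 1.21. The phase call followed from the scores alone: a nucleus with both scores below 0 was called G1, and any other nucleus took the phase of its higher score, with 0 exceptions. Of the nuclei called G2M, 93.0% had a score of at most 0.1, and their median was 0.0293. Both scores were above 0 in 16.9% of all nuclei. The call thus marked the sign and order of small scores, and no dividing nuclei are read from it below.

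Depth differed between the groups and is set beside the results for that reason. The retained nuclei of a rat numbered 10488 to 43484 (median of the rats 15916.5) and held 11898496 to 49272672 UMIs, which are counts of single RNA molecules. The median nucleus of a rat held 1688 to 2914 UMIs in lean rats, 783 to 1392 under vehicle, 961 to 1760 under sGCact and 989 to 1659 under sGCstim. In RK9_4, RK61_4 and RK7_4 the median mitochondrial share of UMIs was 3.74%, 3.34% and 2.13%, against 0 to 1.01% in the other 9 rats. RK9_4 alone gave 43484 nuclei. Per the labels 10000 nuclei of a sample were loaded for capture, fewer than the nuclei retained in each of the 12 rats, and what this means for the barcodes of RK9_4 was not tested. Of the nuclear barcodes, 5832 occurred in more than 1 rat, 29 to 290 for each of the 66 pairs of rats, and none of these shared both its UMI count and its score.

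Averaged over all its nuclei, the score was lowest in lean rats and highest under vehicle. By the median nucleus of a rat, sGCact was lowest (-0.0186 ± 0.00394, against -0.0164 ± 0.000868 in lean rats, SD, n = 3 each). In means without the proximal tubule, RK43_4 and RK45_4 (-0.0142 and -0.0126) lay below each lean rat (-0.0120 to -0.0112), and RK46_4 (-0.00928) above. The mean score of a rat was -0.0112, -0.0119 and -0.0122 in the lean rats RK1_4, RK3_4 and RK5_4, and 0.00223, 0.00528 and -0.00633 in the vehicle rats RK7_4, RK9_4 and RK16_4. It was -0.00943, -0.00725 and -0.00745 under sGCact, and -0.00771, -0.00531 and 0.000473 under sGCstim, where RK61_4 was the high rat. The vehicle and lean groups did not overlap (0.000393 ± 0.00602 against -0.0118 ± 0.000524, SD, n = 3 each), and neither did vehicle and sGCact (-0.00805 ± 0.00121). The differences were 0.0122 for vehicle against lean and -0.00844 for sGCact against vehicle, each with an exact two-sided permutation p of 0.1, the smallest that 3 rats against 3 allow. The sGCstim group overlapped the vehicle group, with a difference of -0.00457 (exact permutation p = 0.3). Adjusted over the 4 comparisons these p-values became 0.2, 0.2 and 0.3.

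The phase call followed the order of the mean score over all nuclei. Between 25.5% and 26.7% of the nuclei of a lean rat were called G2M, 29.8%, 35.5% and 42.5% of those of RK16_4, RK7_4 and RK9_4, 28.2% to 29.5% under sGCact, and 27.6%, 29.0% and 37.3% under sGCstim. Vehicle was 9.82 percentage points above lean and the difference of sGCact from vehicle was -6.88 points (exact permutation p = 0.1 each, adjusted 0.2). The S score did not follow this order: its mean over a rat was -0.000940 ± 0.000374 in lean rats, -0.00230 ± 0.000832 under vehicle and 0.00225 ± 0.00222 under sGCstim (SD, n = 3 each).

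Part of the span between rats went with the makeup of their nuclei. RK9_4 held 30174 nuclei of PST, the proximal straight tubule, more than any single one of the other 11 rats had of any cluster. Giving equal weight to the 18 clusters with at least 20 nuclei in every rat, the vehicle rats scored -0.00106, -0.00279 and -0.00661 and the lean rats -0.0117 to -0.00910. The groups still did not overlap, and the difference was 0.00717 (exact permutation p = 0.1, adjusted 0.267). Under sGCact the weighted score was -0.0109, -0.0104 and -0.00632, so that RK46_4 now overlapped the vehicle group (difference -0.00571, exact permutation p = 0.2).

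Within a narrower range of UMIs, vehicle and lean rats overlapped. Among nuclei of 1000 to 2000 UMIs the difference of vehicle from lean was 0.00557 in the mean score (exact permutation p = 0.2), 0.00230 in the weighted score over 14 clusters (exact permutation p = 0.3) and 4.99 points in the G2M share (exact permutation p = 0.4). The mean score of the lean rat RK1_4 was then -0.00359, next to -0.00345 in RK7_4 and above -0.00746 in RK16_4. For sGCact against vehicle the mean score differed by -0.00673 (exact permutation p = 0.2) and the weighted score by -0.00462 (exact permutation p = 0.1).

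**Figure D1:**
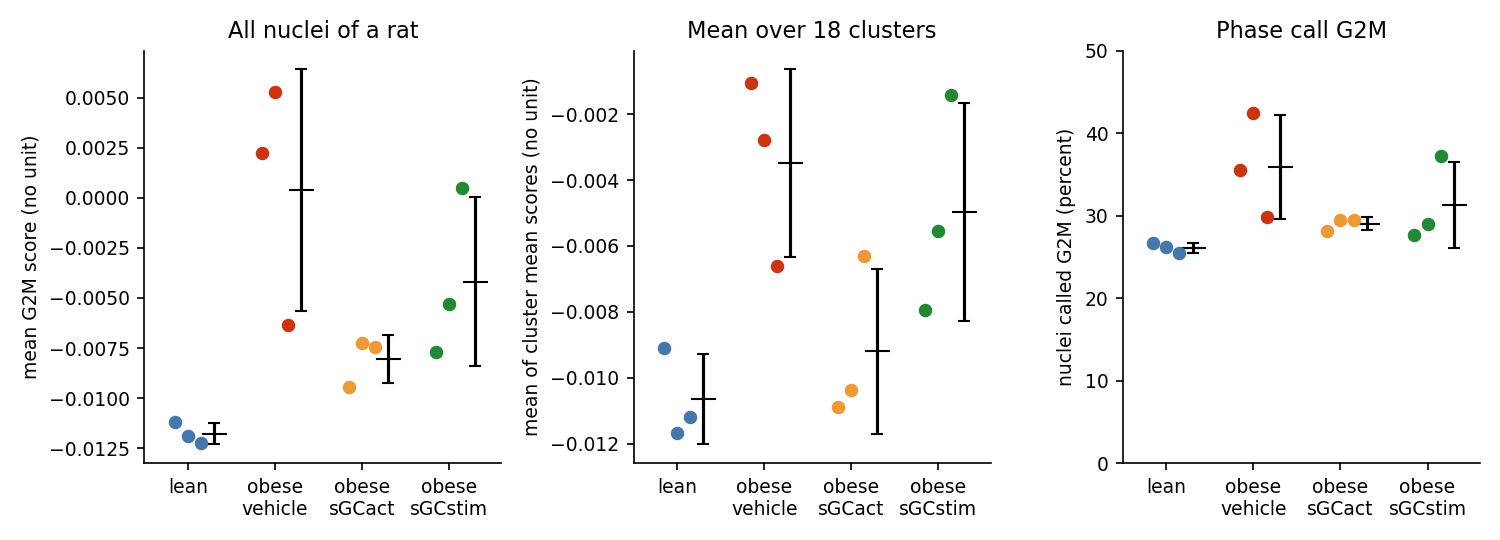
Each point is 1 rat, and the black bars give the mean and SD of its group (n = 3). The panels show the mean G2M score over all nuclei, the mean over 18 clusters with equal weight, and the percent of nuclei called G2M, whose axis starts at 0; the lean rats lie at 25.5% to 26.7% and the vehicle rats at 29.8% to 42.5%.

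The rats also differed along their depth. Over the 12 rats the mean score fell with the median UMIs of a nucleus (Pearson r = -0.702, permutation p = 0.0106; Spearman rho = -0.790, p = 0.00322; adjusted over the 4 relations computed, 0.0142 and 0.0129). It rose with the median mitochondrial share (r = 0.880, permutation p = 0.00137, adjusted 0.00548; rho = 0.673, p = 0.0196, adjusted 0.0392). Without the 2 rats farthest from the median, r was -0.689 for UMIs and 0.751 for the mitochondrial share (permutation p = 0.0231 and 0.0432). As deviations from the group means, r was -0.426 for UMIs (exact permutation p = 0.122) and 0.874 for the mitochondrial share (exact permutation p = 0.0394, adjusted 0.157). The weighted score held less of this: r was -0.508 with UMIs (permutation p = 0.0871; rho = -0.573, p = 0.0545) and -0.0759 within groups (exact permutation p = 0.798). With the mitochondrial share it was 0.743 (permutation p = 0.00566, adjusted 0.0113; rho = 0.476, p = 0.119), and without RK9_4 and RK61_4 r was 0.570 on 10 rats, which no longer passed (permutation p = 0.0852). Within groups the weighted score had r = 0.600 with the mitochondrial share (exact permutation p = 0.215, adjusted 0.286). The labels name no batch of sequencing or dissociation, so no value within a batch could be given.

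Across the kidney the score ran from podocytes at the low end to clusters of the proximal tubule and AA/LA/EA at the high end. The clusters were built from the expression of the same nuclei, so their levels are a description and carry no test. A rat entered a cluster with at least 20 nuclei. The mean over rats was below 0 in 23 of 25 clusters, and it spanned -0.0206 to 0.000582.

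Podo, the podocytes that wrap the glomerular capillaries, had the lowest level (-0.0206 ± 0.0137, SD, n = 12). The next were IC-A/CD-Trans (-0.0159 ± 0.00464, n = 5), DCT/CNT (-0.0145 ± 0.00309, n = 12), SMC/Peri (-0.0124 ± 0.00679, n = 11) and TAL (-0.0124 ± 0.00350, n = 12). DCT/CNT joins the distal convoluted and the connecting tubule, and TAL usually stands for the thick ascending limb of the loop of Henle, which reabsorbs salt without water. DCT/CNT, TAL, CNT/PC, DCT and IC-A were below 0 in each of the 12 rats. IC-B, the other intercalated cell of the distal nephron, lay higher, at -0.00335 ± 0.00372 (n = 12).

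At the other end stood AA/LA/EA (0.000582 ± 0.00597, n = 11), PCT, the proximal convoluted tubule (4.30e-07 ± 0.00344, n = 12), PTinj, which the study names injured proximal tubule (-0.000209 ± 0.00688, n = 12), PTnov1 (-0.000680 ± 0.00481, n = 12) and the immune cells (-0.000961 ± 0.00526, n = 12). With medians of nuclei in place of means, AA/LA/EA (-0.00352) and PCT (-0.00458) stayed at this end. PTinj (-0.0100), PTnov1 (-0.00991) and Immune (-0.00967) then lay below IC-B (-0.00752). Within the proximal tubule, PST lay lower (-0.00821 ± 0.00835, n = 12), below PCT in 10 of 12 rats and below PST(Spp1+) in 11 of 12. The intercalated cells of the collecting duct, which secrete acid or base, differed as well: IC-B was above IC-A in 11 of 12 rats, by 0.00638 ± 0.00486 (SD of the difference). PCT exceeded TAL in 12 of 12 rats by 0.0124 ± 0.00309.

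Neighbours in this order could rarely be told apart. Of the 24 pairs of neighbouring clusters, 22 differed in the same rats by less than 1 SD of that difference. The exceptions were Podo below IC-A/CD-Trans in 5 of 5 rats, by 0.00959 ± 0.00460, and PST(Spp1+) below PTnov2 in 4 of 4 rats, by 0.00820 ± 0.00446. Over the 23 clusters with most rats, the order by G2M score was only loosely related to the order by S score (Spearman rho = 0.242) and ran against the order by UMIs (rho = -0.467); both are descriptions over clusters that share rats and libraries.

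**Figure D2:**
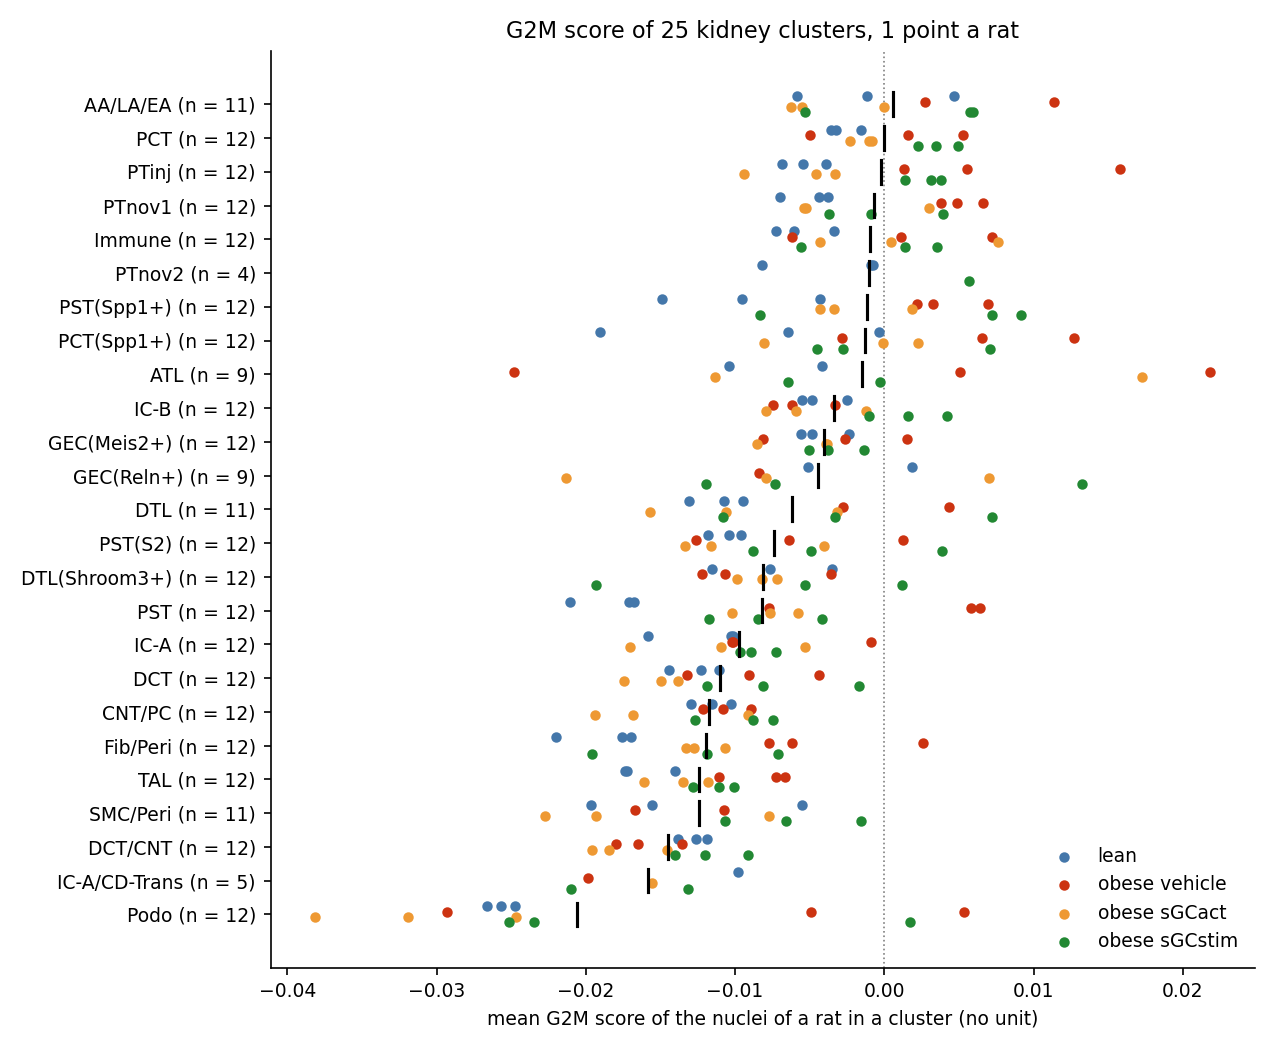
Mean G2M score (horizontal axis, no unit) of the nuclei of a rat in each of 25 clusters, 1 point a rat, coloured by group, with a black bar at the mean over rats. Podo lies lowest at -0.0206 with 3 rats far to the right, DCT/CNT, TAL, CNT/PC, DCT and IC-A lie below 0 in all rats, and PCT, PTinj and AA/LA/EA lie around 0.

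Podocytes fell into separate ranges of the score between rats. Their mean score lay between -0.0381 and -0.0235 in 9 rats but was 0.00532 in RK7_4, -0.00488 in RK9_4 and 0.00175 in RK61_4. In those 3 rats the median podocyte held 590, 934.5 and 842 UMIs and 5.74%, 5.65% and 4.73% mitochondrial UMIs, against 2156 to 4204 UMIs and at most 0.136% in the other 9. The 3 rats belong to 2 groups, and their part in the podocyte results was not tested.

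Nuclei with fewer UMIs tended to score higher. Over rats, nuclei of up to 750 UMIs averaged 0.000783 ± 0.00513 (SD, n = 10) with 37.0% called G2M, and nuclei of over 2500 UMIs averaged -0.0123 ± 0.00514 (n = 12) with 24.4%. Within a rat and cluster, the correlation of the score with log UMIs over nuclei was negative in 219 of 276 pairs of rat and cluster, with a median of -0.0595. The fall was steep in Fib/Peri, the fibroblasts and pericytes of the interstitium, from -0.00151 ± 0.00813 (n = 6) up to 750 UMIs to -0.0296 ± 0.00837 (n = 8) over 2500. In PTinj the score over all rats was 0.000653 ± 0.0106 (n = 3) in the lowest range and 0.00130 ± 0.0128 (n = 12) in the highest. Its lean mean went from -0.00147 (2 rats) over 750 and up to 1000 UMIs to -0.00649 over 2500, and its vehicle mean from 0.000334 (2 rats) to 0.0133. Over 2500 UMIs the 3 vehicle rats spanned -0.00252 to 0.0361 and the 3 lean rats -0.00858 to -0.00254, so the vehicle mean there leans on its highest rat. Deposited counts of genes were not analysed here, so nuclei could not be thinned to equal depth, and ranges of UMIs were compared instead.

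The question put to the vehicle and lean groups was which clusters carry a higher or lower score in the diabetic kidney. With vehicle against lean, 6 of 22 clusters tested had a higher score and 0 a lower one (27.3% called; limma with Benjamini-Hochberg adjustment over clusters, threshold 0.05). They were PST, Fib/Peri, PTinj, PTnov1, TAL and PST(Spp1+), which is 4 clusters of the proximal tubule, 1 of the loop of Henle and 1 of the stroma. PCT, PST(S2) and PCT(Spp1+), also of the proximal tubule, were tested and not called (adjusted p = 0.351, 0.384 and 0.0762, limma). The difference was above 0 in 18 of the 22 clusters, with a median of 0.00704 and a range of -0.00324 to 0.0198, and 8 passed p under 0.05 without adjustment, each of them higher. In 7 of the 22 clusters the rats of both groups did not overlap.

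PST had the widest difference. Its mean score was -0.0168, -0.0210 and -0.0171 in RK1_4, RK3_4 and RK5_4, and 0.00583, 0.00643 and -0.00774 in RK7_4, RK9_4 and RK16_4. Every vehicle rat was above every lean rat, and RK16_4 was the nearest to them. The difference was 0.0198 (SE 0.00374, adjusted p = 0.00504, limma). In RK7_4 and RK9_4 the median PST nucleus held 639 and 887 UMIs and 5.33% and 4.28% mitochondrial UMIs, against 1810 and 0.0837% in RK16_4 and 2226 to 4047 and at most 0.0277% in lean rats. Among PST nuclei with at most 1% mitochondrial UMIs the values were 0.000684, -0.00243 and -0.00798 under vehicle and -0.0210 to -0.0168 in lean rats (difference 0.0151, adjusted p = 0.00377, limma). Among PST nuclei of 1000 to 2000 UMIs the lean rats rose to -0.0139 to -0.0111, still below all vehicle rats (-0.00977 to 0.00828), and the difference of 0.0130 no longer passed (adjusted p = 0.0850, limma). Over 22 alternatives the adjusted p ran from 1.61e-08 to 0.140 and 20 passed. The alternatives, here and below, include fits without a rat of a drug group. These change the shared spread but not the difference of vehicle from lean. PST did not pass with medians of nuclei.

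PTinj kept its difference within a narrower range of UMIs. Its mean score was -0.00390, -0.00689 and -0.00544 in the lean rats and 0.00131, 0.00552 and 0.0158 in RK7_4, RK9_4 and RK16_4. The groups did not overlap, and the difference was 0.0130 (SE 0.00342, adjusted p = 0.0208, limma). The median UMIs of a PTinj nucleus were 1690.5 to 3377 in lean rats and 1826 to 2678 under vehicle, and the mitochondrial share was at most 0.208% in each of these 6 rats. Among nuclei of 1000 to 2000 UMIs, PTinj scored -0.00688, -0.00835 and -0.0117 in lean rats and 0.00119, 0.00695 and 0.00609 under vehicle, and it was the 1 cluster of 21 that passed there (difference 0.0137, adjusted p = 0.0273, limma). In that range RK1_4, RK3_4 and RK5_4 held only 26, 81 and 87 PTinj nuclei, and RK7_4, RK9_4 and RK16_4 held 261, 83 and 623. Over 22 alternatives the adjusted p of PTinj ran from 0.0104 to 0.265 and 18 passed. It did not pass with medians of nuclei, nor with the vehicle and lean rats fitted without the drug groups.

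The other calls were less steady. Fib/Peri scored -0.0176, -0.0170 and -0.0220 in lean rats and 0.00257, -0.00619 and -0.00770 under vehicle (difference 0.0151, SE 0.00358, adjusted p = 0.0151, limma). Among its nuclei of 1000 to 2000 UMIs the difference was 0.00290 (adjusted p = 0.756, limma, the highest over 22 alternatives, of which 18 passed), and the groups overlapped. PTnov1 scored -0.00700 to -0.00375 in lean rats and 0.00382 to 0.00662 under vehicle (difference 0.0101, SE 0.00292, adjusted p = 0.0244, limma). Its nuclei were high in mitochondrial UMIs in both groups, at 3.23% to 5.74% in lean rats and 6.53% to 12.7% under vehicle. TAL scored -0.0174 to -0.0140 in lean rats and -0.0111 to -0.00665 under vehicle (difference 0.00789, SE 0.00231, adjusted p = 0.0244, limma). PST(Spp1+), the sixth and outside the rule for named clusters, differed by 0.0137 (SE 0.00443, adjusted p = 0.0366, limma).

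Single rats decided some of these calls. Only PST passed without each of the 12 rats in turn. Without RK3_4 or RK7_4, 2 clusters were called, without RK9_4 3 and without RK16_4 9. Fib/Peri was lost without RK7_4 (adjusted p = 0.0502), PTinj without RK3_4 (0.0729), and PTnov1 without RK3_4, RK5_4, RK7_4 or RK9_4 (0.0620 to 0.0927), all by limma. TAL was lost without RK1_4, RK3_4, RK7_4 or RK9_4 (0.0620 to 0.116), and PST(Spp1+) without RK3_4, RK5_4, RK7_4, RK9_4 or RK45_4 (0.0505 to 0.116). With RK7_4 and RK9_4 both set aside, RK16_4 alone remained in the vehicle group and no test was made. Its scores in PST, Fib/Peri, PTinj, PTnov1 and TAL were each above all 3 lean rats. These clusters had been called with RK16_4 among the vehicle rats, so its place in them is no separate evidence.

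**Figure D3:**
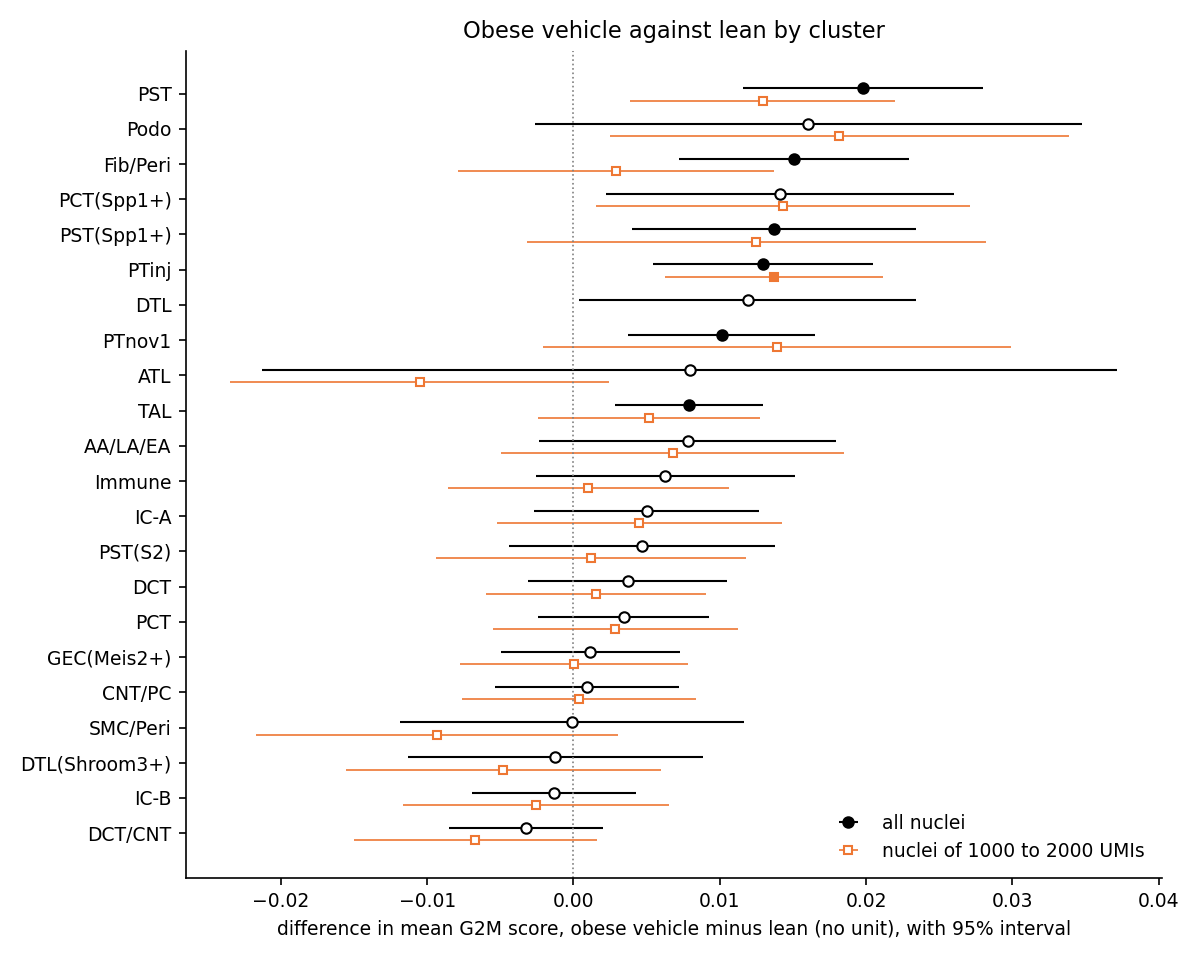
Difference in mean G2M score, vehicle minus lean (horizontal axis, no unit), for 22 clusters, with the 95% interval of the limma fit, for all nuclei (circles) and for nuclei of 1000 to 2000 UMIs (squares). Filled symbols passed an adjusted p of 0.05; 6 circles are filled and 1 square, that of PTinj.

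Nuclei restricted to a narrower range of UMIs gave smaller differences in most clusters. Of the 21 clusters tested both ways, 17 had a smaller difference among nuclei of 1000 to 2000 UMIs than among all nuclei, and the median difference was 0.00287 in place of 0.00628. The difference was above 0 in 16 of 21 clusters in the nuclei of 1000 to 2000 UMIs and in 17 of 21 in all nuclei. Depth could still differ within that range. Its median PST nucleus held 1090 UMIs in RK9_4, 1458 in RK7_4, 1535 in RK16_4 and 1536 to 1712 in lean rats. The mitochondrial share there was 5.29% in RK9_4 and at most 0.126% in lean rats. In PST, vehicle lay above lean within the ranges of over 1500 and up to 2500 UMIs (-0.00687 to -0.00420 against -0.0172 to -0.0141) and over 2500 UMIs (-0.0096 to -0.00664 against -0.0223 to -0.0170), with no overlap. In PST nuclei of over 1000 and up to 1500 UMIs the groups overlapped (-0.0103 to 0.00864 against -0.0133 to -0.0096). In Fib/Peri both groups overlapped in each range they shared.

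**Figure D4:**
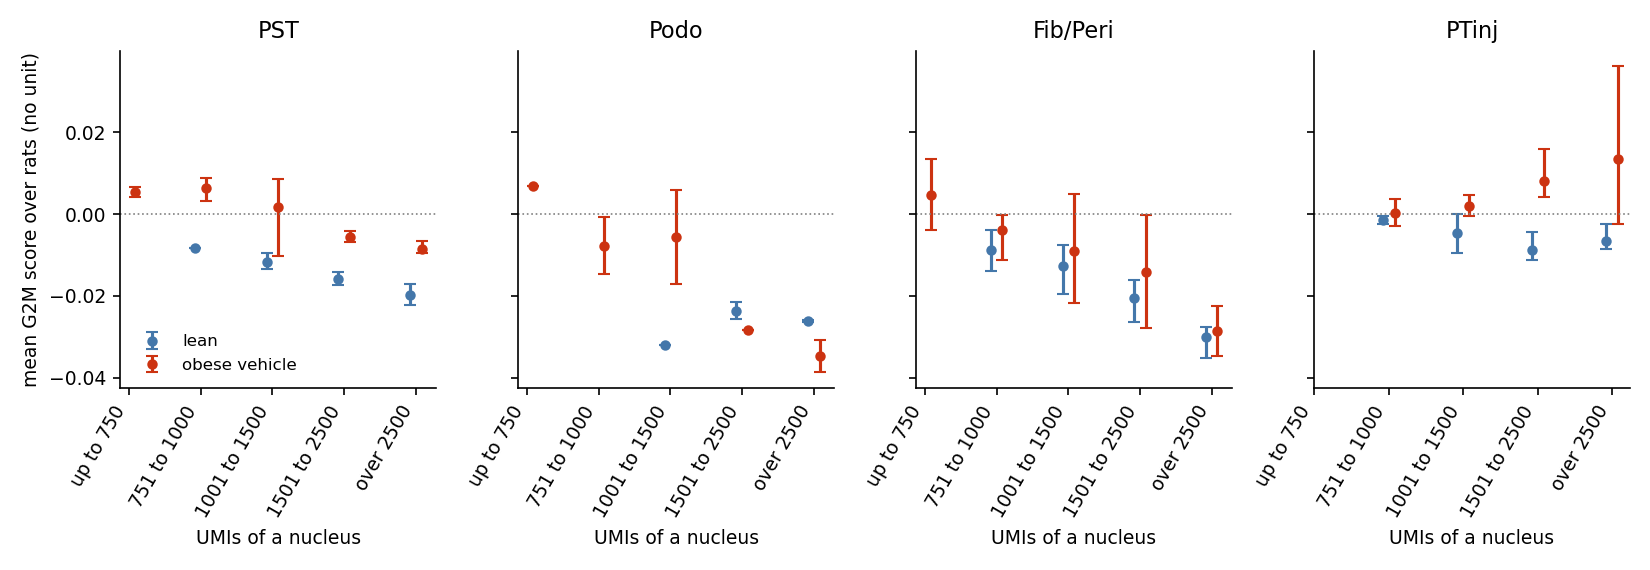
Mean G2M score (vertical axis, no unit) of nuclei in 5 ranges of UMIs (horizontal axis) for 4 clusters; points are means over the lean or vehicle rats with at least 20 nuclei in the range and bars run from the lowest to the highest rat. PST and Fib/Peri fall with UMIs in both groups. In PTinj the lean mean goes from -0.00147 to -0.00649 and the vehicle mean from 0.000334 to 0.0133 between the range of over 750 and up to 1000 UMIs (2 rats a group) and that of over 2500 (3 rats a group). In the latter the vehicle rats span -0.00252 to 0.0361.

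The share of nuclei called G2M gave calls of its own. With vehicle against lean, 6 of 22 clusters had a higher share and 0 a lower one (27.3% called; limma on log odds), with 7 at p under 0.05 without adjustment. PST was 38.4% ± 5.78 under vehicle (32.4%, 39.1% and 43.9% in RK16_4, RK7_4 and RK9_4) and 22.2% ± 1.96 in lean rats (19.9% to 23.5%), a difference in log odds of 0.783 (SE 0.146, adjusted p = 0.00297, limma). PST passed in 21 of 22 alternatives, with adjusted p from 1.80e-06 to 0.278; the exception was nuclei of 1000 to 2000 UMIs. DTL, a name usual for the descending thin limb, was 40.9% ± 4.76 against 25.7% ± 0.0580, on 2 vehicle rats, since RK7_4 had 16 nuclei there (log odds 0.690, adjusted p = 0.0133, limma). In RK16_4 and RK9_4 the median DTL nucleus held 783 and 908 UMIs and 3.05% and 6.58% mitochondrial UMIs. Lean rats had 1459 to 2754 UMIs and 0.0769% to 0.389% there. DTL had no fit restricted by UMIs or by mitochondrial share, so the part of depth in its call was not tested.

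The other calls of the share were PST(Spp1+) at 40.5% ± 2.21 against 27.7% ± 1.80 (adjusted p = 0.0291), Fib/Peri at 33.3% ± 3.23 against 24.5% ± 1.11 (0.0395) and AA/LA/EA at 45.1% ± 6.96 on 2 vehicle rats against 32.8% ± 2.25 (0.0459), all by limma. RK7_4, left out of AA/LA/EA with 18 nuclei, was at 22.2% there, below each lean rat. With a minimum of 10 nuclei, which takes RK7_4 in, AA/LA/EA was not called. PTnov1, the sixth and outside the rule for named clusters, was 41.1% ± 3.52 against 31.9% ± 1.59 (0.0459, limma). PTinj and TAL, called by their score, were not called by their share: their log odds differed by 0.252 (adjusted p = 0.203) and 0.302 (adjusted p = 0.0825, limma). Among nuclei of 1000 to 2000 UMIs no cluster was called by its share. PST passed without each of the 12 rats in turn, and DTL in each such fit that left it 2 vehicle rats. Without RK3_4 or RK5_4, 2 clusters were called, without RK9_4 1, and without RK43_4 or RK58_4 3. PST(Spp1+) was lost without RK3_4, RK5_4 or RK9_4 (0.0639 to 0.107, limma). Fib/Peri was lost without RK1_4, RK3_4, RK5_4, RK7_4, RK9_4, RK43_4 or RK58_4 (0.0514 to 0.129, limma), AA/LA/EA without RK1_4, RK3_4, RK5_4, RK43_4, RK57_4, RK58_4 or RK61_4 (0.0514 to 0.137), and PTnov1 without RK1_4, RK3_4, RK5_4, RK9_4, RK16_4, RK43_4, RK45_4 or RK58_4 (0.0532 to 0.225).

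The comparison of sGCact with vehicle asked whether the activator changed the score of the diseased kidney. No cluster of 22 passed for the score or the share (0% called each, limma), while 7 were lower at p under 0.05 without adjustment for the score and 5 for the share, and 0 higher. The difference was below 0 in 18 of 22 clusters, with a median of -0.00500. PTinj came nearest. It scored -0.00939, -0.00455 and -0.00333 in RK43_4, RK45_4 and RK46_4 under sGCact, below each of the 3 vehicle rats and within or near the range of the lean rats (-0.00689 to -0.00390). The difference from vehicle was -0.0133 (95% interval -0.0208 to -0.00582, SE 0.00342, adjusted p = 0.0521, limma).

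The PTinj difference passed in 9 of 22 alternatives, with adjusted p from 0.00355 to 0.385. Among nuclei of 1000 to 2000 UMIs, PTinj scored -0.0113, -0.0101 and -0.00888 under sGCact and 0.00119 to 0.00695 under vehicle (difference -0.0148, adjusted p = 0.0103, limma), and it passed as well with at least 1000 UMIs (0.0296) and with at most 1% mitochondrial UMIs (0.0162). It passed without RK7_4 (0.0114), RK16_4 (0.0231) or RK46_4 (0.0415), and fell to 0.234 without RK43_4 (limma). Since sGCact and lean were both compared with the same vehicle rats, both PTinj differences share RK7_4, RK9_4 and RK16_4.

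PTnov1 and Podo were next in order. PTnov1 scored -0.00526, -0.00540 and 0.00301 under sGCact (difference from vehicle -0.00764, 95% interval -0.0141 to -0.00123, adjusted p = 0.117, limma). Among PTnov1 nuclei of 1000 to 2000 UMIs the sign turned, with a difference of 5.55e-05. Podo scored -0.0319, -0.0381 and -0.0247 under sGCact and 0.00532, -0.00488 and -0.0293 under vehicle, where the 2 high rats are those with shallow podocytes (difference -0.0220, SE 0.00853, adjusted p = 0.117, limma). Among podocytes with at most 1% mitochondrial UMIs, RK9_4 scored -0.0224 and RK16_4 -0.0292, RK7_4 had only 4 nuclei and was dropped, and the difference was -0.00601 (adjusted p = 0.301, limma; over 22 alternatives 0.0182 to 0.416). Without RK16_4, 4 clusters passed: PST, Podo, PTinj and TAL (adjusted p 0.00757, 0.0183, 0.0231 and 0.0390), each lower under sGCact. Without RK46_4, PTinj and PTnov1 passed (0.0415 each), and without RK7_4 PTinj alone (0.0114, limma). By share, AA/LA/EA (31.8% ± 5.32 against 45.1% ± 6.96 on 2 vehicle rats, adjusted p = 0.0910), DTL (29.2% ± 5.71 against 40.9% ± 4.76 on 2, 0.0910) and Podo (15.7% ± 3.36 against 31.5% ± 12.4, 0.0927) came nearest (limma). Each passed without 1 rat: AA/LA/EA without RK46_4 (0.0430), DTL without RK45_4 (0.0364) and Podo without RK16_4 (0.00821, limma). In AA/LA/EA the vehicle rat left out, RK7_4, was at 22.2% on 18 nuclei, below each sGCact rat.

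Under sGCstim the differences from vehicle went both ways. No cluster of 22 passed for the score or the share (0% called each, limma), with 2 lower and 1 higher for the score, and 1 each for the share, at p under 0.05 without adjustment. The score difference was below 0 in 14 of 22 clusters, with a median of -0.00150. IC-B scored 0.00161, -0.00104 and 0.00419 under sGCstim and -0.00748, -0.00617 and -0.00329 under vehicle, higher in every rat (difference 0.00724, 95% interval 0.00164 to 0.0128, adjusted p = 0.200, limma). In RK61_4 the median IC-B nucleus held 852.5 UMIs and 4.45% mitochondrial UMIs, against at most 0.449% in the other 11 rats.

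PST scored -0.0117, -0.00849 and -0.00420 under sGCstim, a difference from vehicle of -0.00965 (95% interval -0.0179 to -0.00146, adjusted p = 0.200, limma). RK61_4 lay above RK16_4 of the vehicle group. Fib/Peri came next, at -0.0129 ± 0.00627 against -0.00378 ± 0.00555 (adjusted p = 0.200, limma). Without RK16_4, PST passed (difference -0.0143, adjusted p = 0.00669, limma). By share, PST was 28.4% ± 4.41 against 38.4% ± 5.78 (adjusted p = 0.184), SMC/Peri 34.7% ± 2.38 against 24.3% ± 3.39 on 2 vehicle rats (0.309) and PTnov1 35.1% ± 5.14 against 41.1% ± 3.52 (0.551, limma). The share in PST passed without RK16_4 (0.0306) or RK61_4 (0.0351, limma).

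Under sGCstim PTinj lay within the span of the vehicle rats. It scored 0.00380, 0.00314 and 0.00141 in RK57_4, RK58_4 and RK61_4, all above the 3 lean and the 3 sGCact rats (difference from vehicle -0.00477, adjusted p = 0.601, limma). The doses per day differed, and with that limit sGCact and sGCstim were set against each other directly. In PTinj the difference of sGCact from sGCstim was -0.00854 (95% interval -0.0161 to -0.000971, adjusted p = 0.191, limma), which did not pass. In DCT it was -0.00816 (-0.0154 ± 0.00184 against -0.00724 ± 0.00515, 95% interval -0.0150 to -0.00128) and in IC-B -0.00662 (95% interval -0.0122 to -0.00100), with an adjusted p of 0.191 each (limma). None of the 23 clusters passed for the score or the share (0% called each, limma), with 4 and 4 at p under 0.05 without adjustment, all lower under sGCact. By share AA/LA/EA (31.8% against 44.2%, adjusted p = 0.156), SMC/Peri (25.2% against 34.7%, 0.245) and DCT (23.6% against 30.2%, 0.245) were nearest (limma); SMC/Peri passed without RK45_4 (0.00440, limma). These intervals hold differences of about the size called between vehicle and lean, so the data do not show that both drugs acted alike.

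A few nuclei stood far above the rest. A score over 0.3 was found in 232 nuclei (0.107%), a limit set after the data were seen; 68 of all nuclei lay between 0.25 and 0.35, 371 were above 0.2 and 128 above 0.5. Of the 232, 216 were called G2M and 16 S. An S score above 0.1 was found in 114 of them (49.1%), against 5008 of all nuclei (2.31%). Most nuclei with such an S score were thus not among the 232. Over nuclei of 1 cluster and rat both scores were nearly unrelated (median r = 0.0368 over 276 pairs of rat and cluster). The correlation was higher in Immune (median r over rats 0.223) and in GEC(Reln+) (0.227). These nuclei did not lie at the shallow end: they held a median of 1809 UMIs, 1.19 times the median of their own rat and cluster, against 1277 UMIs in the remaining nuclei.

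The high nuclei were spread over 20 clusters. PCT held 55 (0.263% of its 20917 nuclei, exact 95% interval 0.198% to 0.342%), in 11 of 12 rats. PTinj held 52 (0.889% of 5852, 0.664% to 1.16%) in 8 rats, which is 22.4% of all high nuclei against 2.70% of all nuclei. Of these 52, 35 came from RK16_4, and without it PTinj held 17 of 4661 (0.365%). GEC(Meis2+) held 23, Immune 14 (0.414%) and CNT/PC 14. PST, with 62692 nuclei, held 7 (0.0112%), although PST had the widest score difference between vehicle and lean. Podo, PTnov1, AA/LA/EA, SMC/Peri and IC-A/CD-Trans held none; 0 of 8348 PTnov1 nuclei has an exact upper limit of 0.0442%. Intervals cover counting error only.

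By rat the share above 0.3 was uneven within groups. It was 0.0355% to 0.0792% in lean rats, 0.0322%, 0.189% and 0.396% in RK9_4, RK7_4 and RK16_4, 0.108% to 0.153% under sGCact, and 0.0129%, 0.129% and 0.269% under sGCstim. The vehicle group overlapped the lean group (difference 0.146 percentage points, exact permutation p = 0.4), and without RK16_4 the difference was 0.0506 points. It was 0.285 points with at least 1000 UMIs and 0.311 points with at most 1% mitochondrial UMIs (exact permutation p = 0.1 each). RK16_4, which had the lowest mean score of the vehicle rats, held 52 of the 232 high nuclei, while RK9_4 and RK61_4, with high mean scores, held 14 and 3.

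In PTinj the vehicle group lay above the lean and sGCact groups without overlap. A score above 0.3 was found in 0.429%, 0% and 0.476% of the PTinj nuclei of the lean rats and in 1.05%, 0.658% and 2.94% of those of RK7_4, RK9_4 and RK16_4, which is 5 of 477, 3 of 456 and 35 of 1191 nuclei. Under sGCact it was 0.256%, 0% and 0%, and under sGCstim 0.729%, 0.557% and 0%. Vehicle exceeded lean by 1.25 percentage points, and the difference from vehicle was -1.46 points under sGCact (exact permutation p = 0.1 each, adjusted 0.2) and -1.12 under sGCstim, where the groups overlapped in 1 of 9 pairs of rats (exact permutation p = 0.2, adjusted 0.267). Counts of 0 allow a share of up to 1.12% in RK3_4, 0.723% in RK45_4, 1.42% in RK46_4 and 0.274% in RK61_4 (3 counts of the nuclei). Without RK16_4 these differences were 0.551, -0.768 and -0.424 points. Vehicle against lean depended on the limit, which was set after the data were seen: above 0.5 the groups overlapped, with a difference of 0.499 points (exact permutation p = 0.6), and above 0.2 it was 1.34 points (exact permutation p = 0.1). Among nuclei of 1000 to 2000 UMIs it was 0.737 points (exact permutation p = 0.4), and that of sGCact from vehicle -0.737 (exact permutation p = 0.4).

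The high nuclei moved the PTinj mean of RK16_4 most. Without its 35 high nuclei the mean score fell from 0.0158 to -0.000630, while RK9_4 went from 0.00552 to 0.00199 and RK7_4 from 0.00131 to -0.00386. With high nuclei set aside in all rats, PTinj averaged -0.000834 ± 0.00293 under vehicle, -0.00764 ± 0.000869 in lean rats, -0.00611 ± 0.00380 under sGCact and -4.17e-05 ± 0.00127 under sGCstim (SD, n = 3 each). Vehicle remained above each lean rat, and RK7_4 then lay among the sGCact rats. These means leave out nuclei by their own score and carry no test.

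**Figure D5:**
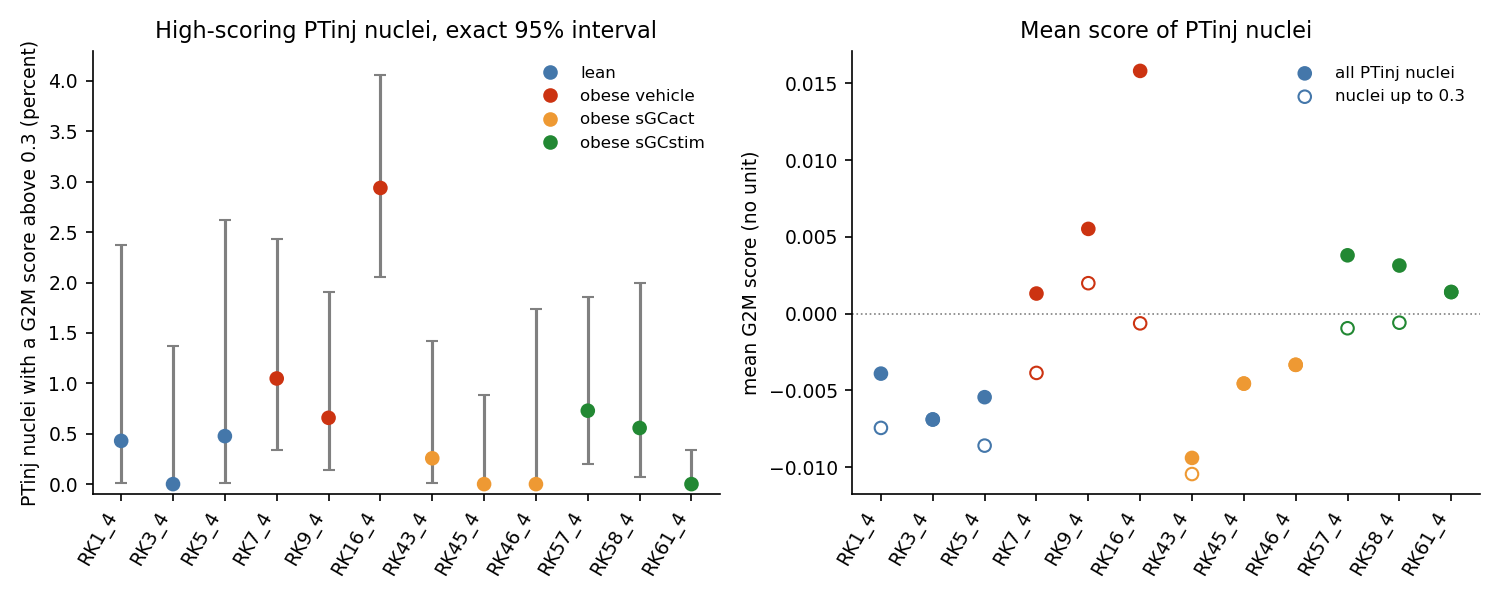
Left, percent of PTinj nuclei with a G2M score above 0.3 in each rat, with exact 95% binomial intervals for counting error; RK16_4 stands at 2.94% and the sGCact rats at 0% to 0.256%. Right, mean G2M score (no unit) of PTinj nuclei with (filled) and without (open) the nuclei above 0.3, coloured by group as on the left.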

How the data were processed

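Single-nucleus RNA-seq of whole kidneys was analysed from 1 deposited table with a row per nucleus. Per the study's methods, the authors aligned reads to rn6 with a pre-mRNA annotation (Cell Ranger 6 in the submitters' processing notes), corrected for ambient RNA, removed doublets and nuclei with fewer than 200 or more than 3000 genes or over 15% mitochondrial UMIs, and integrated and clustered with Harmony and Seurat. The deposited UMI and gene counts per nucleus are whole numbers, the deposited mitochondrial values are a percent of UMIs, and the deposited S and G2M values are scores with no unit, as Seurat computes them; rat, cluster, phase and group are deposited names.

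Rats were grouped by the table's condition column alone; they are separate animals and carry no replicate number. Nuclei were averaged per rat and cluster (at least 20 nuclei, at least 2 rats a group). The 4 group contrasts were fitted over all clusters with limma 3.58.1 in R 4.3.3 on the mean score, and on the log odds of the G2M share (0.5 added to G2M nuclei, 1 to all), with Benjamini-Hochberg adjustment within each contrast. All 4 groups shared 1 estimate of spread. Values of a rat were compared by exact two-sided permutation over 20 splits (scipy 1.17.1), correlations by 100000 permutations. Named were the clusters past 0.05, at most 5 by largest moderated t, or else the 3 with the smallest p. On simulated data over 18 clusters, vehicle against lean, the score fit recovered 54.5% of differences of 0.01 and 94% of 0.02, and the share fit 73.5% of log odds of 0.5. The simulation drew each rat and cluster independently, with the same SD in all groups. In the data the SD of the mean score of a rat was 0.00602 under vehicle and 0.000524 in lean rats, so recovery in the data may differ. The clusters, comparisons and settings were chosen with earlier results of these data known; the score limit of 0.3 and centring on a rat's other clusters were chosen after the scores were seen.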

Additional observations from a re-analysis of the deposited data

Results flagged for a closer look

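Within the same rats, 4 of 18 clusters differed between vehicle and lean by another amount than the rest of the kidney. For this the mean score of the other clusters of a rat was subtracted from each cluster's score before the limma fit, so that a shift common to a rat drops out. In PST this centred score was -0.00809 ± 0.00184 in lean and 0.00529 ± 0.00575 in vehicle rats (SD, n = 3 each), a difference of vehicle from lean of 0.0134 (SE 0.00286, adjusted p = 0.00741, limma). In Fib/Peri it was -0.00869 ± 0.00292 and -0.000309 ± 0.00380, a difference of 0.00839 (SE 0.00266, adjusted p = 0.0350, limma). In the vehicle rat RK16_4 the PST score lay below the mean of its other clusters, at -0.00119. The centred differences of DCT/CNT (-0.0110, SE 0.00253, adjusted p = 0.00741) and IC-B (-0.00903, SE 0.00270, adjusted p = 0.0326) went the other way. Centring sets the clusters of a rat against each other, so a rise in some lowers the centred score of the rest. Uncentred, DCT/CNT differed by -0.00324 (adjusted p = 0.342) and IC-B by -0.00136 (adjusted p = 0.740, limma), and neither was called. PTinj, PTnov1, TAL and PST(Spp1+), called on the uncentred score, were not called here. The centring was chosen after the scores were seen, and PST is also the cluster whose UMIs and mitochondrial share differed widely between the 2 groups; their part in these differences was not tested. None of the 18 clusters passed in the other 3 contrasts, where the lowest adjusted p was 0.0601 for sGCstim against vehicle, with 4 clusters at p under 0.05 without adjustment, 2 for sGCact against vehicle and 0 between both drugs (limma).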

How the results depend on the processing

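No paired analysis was possible because the rats in the table carry no replicate number and could not be tied to the numbered samples. Of the results for single clusters under each alternative, 567 were the same, 58 fell short of the threshold, 22 newly passed, 15 moved and 2 reversed. The 15 that moved were levels of clusters, which carry no test. Those that were the same include levels, and differences that stayed short of the threshold. For the values of a rat, their relation to depth and the counts of calls, 349 were the same, 37 moved, 8 reversed and 1 fell short. The 6 clusters called by score, vehicle against lean, became 0 with medians of nuclei, 2 with at least 1000 UMIs and 1 with 1000 to 2000 UMIs, and 2 to 9 without 1 rat. They became 4 with the vehicle and lean rats fitted without the drug groups, where PTinj and TAL were not called. For sGCact against vehicle, in place of 0, 1 was called with at least 50 nuclei, robust moderation, at least 1000 UMIs, 1000 to 2000 UMIs or at most 1% mitochondrial UMIs, 3 with weights by nuclei, and 0 to 4 without 1 rat. For sGCstim against vehicle, weights gave 1 and leaving out a rat 0 to 1, and for sGCact against sGCstim weights gave 1. By share, the 6 calls of vehicle against lean became 3 by a score above 0, 1 with at least 1000 UMIs or at most 1% mitochondrial UMIs, 0 with 1000 to 2000 UMIs, and 1 to 7 without 1 rat. Weights gave 2 calls by share for sGCact against vehicle and 1 for each contrast with sGCstim, 1000 to 2000 UMIs gave 1 for sGCstim against vehicle (SMC/Peri), and leaving out a rat gave 0 to 2, 0 to 1 and 0 to 1. The cause of these changes was not tested.

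Among nuclei of 1000 to 2000 UMIs 2 single values reversed for sGCact against vehicle. They were PTnov1 by score (5.55e-05, with a rat of each group dropped for too few nuclei) and AA/LA/EA by share (log odds 0.117). The G2M share of a rat, sGCact minus sGCstim, ran from -4.06 to 0.764 points without 1 rat. The percent of nuclei above 0.3 ran from -0.166 to 0.0162 points for sGCact minus vehicle and from -0.156 to 0.0264 for sGCstim minus vehicle without 1 rat, positive without RK16_4. For sGCact minus sGCstim it ran from -0.0723 to 0.0559, and was 0.0549 with at least 1000 UMIs, 0.0657 with 1000 to 2000 UMIs, 0.0370 with at most 1% mitochondrial UMIs and 0.00598 above a limit of 0.5. The weighted score against the mitochondrial share gave r = 0.570 without the 2 farthest rats. With 3 rats a group, differences of 0.01 were recovered in only 54.5% of simulated cases, which held no shift common to a rat and the same SD in all groups.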
